A study of Danio rerio with 12 samples.

Results

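The Bcl-2 family decides whether mitochondria of a stressed cell stay intact or release the factors that start apoptosis. Survival members such as Bcl-2 and Bcl-xL hold the pore former Bax in check at the outer mitochondrial membrane. The BH3-only members, among them Puma and Noxa, bind the survival members and so free Bax. In vertebrates the genes of Puma, Noxa and Bax are known to be induced by DNA damage, and BCL2 is known as a target of miR-34a in human cells. The genes described here were 5 rows of the deposited count table, chosen by name out of 15265 genes: the BH3-only genes bbc3 (Puma) and pmaip1 (Noxa), the pore former baxa (Bax), and the survival genes bcl2a (Bcl-2) and bcl2l1 (Bcl-xL). All 5 passed the filter on low counts.

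RNA of whole zebrafish embryos at 28 hours post fertilisation (hpf) was read in 4 groups of 3 libraries, each library from a pool of 30 to 50 embryos. Wild-type and miR-34a-/- embryos were left for 4 h from 24 hpf in DMSO, the solvent, or in 1 µM camptothecin (CPT), a poison of topoisomerase I that leaves breaks in DNA. The labels give 0.005% DMSO for both control groups, and the 2 mM stock in DMSO that they name would bring 0.05% to the treated embryos, so the drug and the larger amount of solvent cannot be told apart. The labels do not say that replicates came from separate clutches, so p-values measure the spread between pools, which may be technical, and how the mutation was made is not given in the sources used here.

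Library totals ran from 13.5 to 27.9 M counts. The row mir34, a synonym of mir34a, had 0 to 1 counts in wild-type DMSO libraries, 9, 9 and 32 in wild-type CPT libraries and 0 in all 6 mutant libraries. Spearman correlations across genes between libraries of the same group were 0.986 to 0.994. Composition set the wild-type CPT libraries apart from the others, with 10.7% to 12.3% of counts in their 10 most abundant genes against 8.79% to 9.58% elsewhere, and with scaling factors (TMM) of 0.835 to 0.962 against 1.01 to 1.09. Markers of neurons, neural progenitors, muscle, endothelium, erythroid cells, myeloid leukocytes and epidermis were read in every group, and of these lists the endothelial, erythroid and myeloid ones had 0 to 2 genes at 0 in a group. Because the RNA is of whole embryos, fewer cells of a type and less RNA per cell cannot be told apart in any value below.

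CPT raised the 3 death genes and lowered 1 of the 2 survival genes in embryos of both genotypes. In wild-type embryos bbc3 rose 47.4-fold, pmaip1 8.94-fold and baxa 3.53-fold, while bcl2a fell 4.61-fold. In mutants the rises were 69.1-fold, 12.6-fold and 3.79-fold and the fall was 3.10-fold. The second survival gene, bcl2l1, did not pass the test in either genotype. The test called 4 of the 5 genes in each genotype, where it called 60.8% of all 11866 genes tested in wild-type and 60.2% in mutant embryos. None of the 5 genes passed the test between mutant and wild-type embryos, where 0.598% of all genes did in DMSO and 3.29% in CPT. Levels are CPM, counts scaled to a common library size after TMM correction. They are not divided by transcript length, so they are compared between libraries and not between genes.

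**Figure D1:**
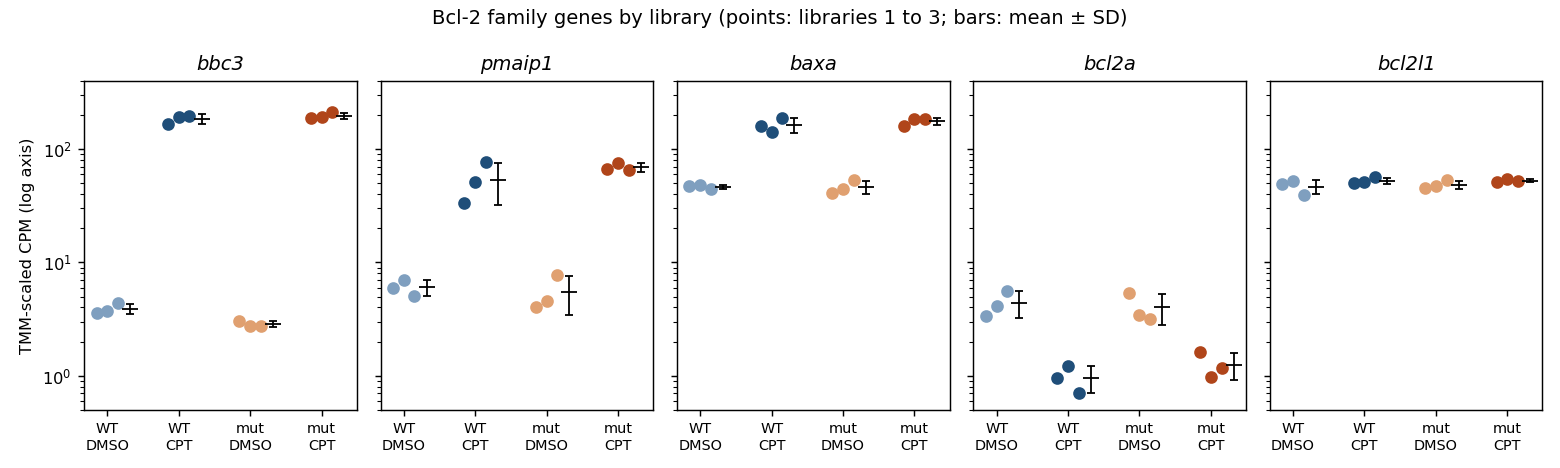
CPM of the 5 genes in each of the 12 libraries (log axis, the same in every panel; points are libraries 1 to 3 from left to right, bars are the mean ± SD of 3 libraries; WT, wild-type; mut, miR-34a-/-). The CPT libraries lie above the DMSO libraries for bbc3, pmaip1 and baxa, below them for bcl2a, and among them for bcl2l1.

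The BH3-only gene bbc3 encodes Puma, which in mammals binds every major survival member of the family. Its level was 3.56, 3.75 and 4.37 CPM with DMSO and 165, 192 and 198 CPM with CPT in wild-type embryos. In mutants it was 3.07, 2.76 and 2.74 CPM with DMSO and 187, 192 and 212 CPM with CPT. Every CPT library was far above every DMSO library. Over all tested genes the libraries of the 2 treatments did not overlap in 64.3% in wild-type and in 66.1% in mutant embryos. The counts behind these levels were 50 to 103 per DMSO library and 2802 to 5329 per CPT library. The log2 fold change was 5.57 ± 0.13 (SE) in wild-type embryos (edgeR quasi-likelihood test, Benjamini-Hochberg adjusted p = 1.44e-17) and 6.11 ± 0.13 in mutants (adjusted p = 6.05e-18). Of the 11866 genes tested, bbc3 had the smallest p in both genotypes and the 7th largest log2 fold change in both.

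Noxa, the product of pmaip1, is a BH3-only protein that in mammals binds chiefly Mcl-1. Wild-type levels of pmaip1 were 6.0, 7.06 and 5.10 CPM with DMSO and 33.5, 51.0 and 77.2 CPM with CPT. Mutant levels were 4.05, 4.55 and 7.81 CPM with DMSO and 66.3, 76.1 and 65.0 CPM with CPT. The groups of each genotype did not overlap, but the wild-type CPT libraries were widely spread, with a coefficient of variation of 40.8% against 8.75% in mutant CPT libraries. The log2 fold change was 3.16 ± 0.30 in wild-type embryos (edgeR adjusted p = 1.84e-06) and 3.65 ± 0.31 in mutants (6.61e-07). It ranked as the 45th largest rise in wild-type and the 39th in mutant embryos.

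The pore former baxa moved less than both BH3-only genes, from a higher count. Its level was 47.2, 48.0 and 44.1 CPM in wild-type DMSO libraries and 160, 143 and 190 CPM in wild-type CPT libraries. The mutant libraries had 40.9, 44.9 and 53.2 CPM with DMSO and 160, 184 and 183 CPM with CPT. All CPT libraries exceeded all DMSO libraries, and those of the 2 genotypes overlapped within each treatment. The log2 fold change was 1.82 ± 0.12 in wild-type embryos (edgeR adjusted p = 6.86e-11) and 1.92 ± 0.12 in mutants (3.59e-11), the 193rd and the 221st largest rise. Wild-type CPT library 3 was the highest of its group for bbc3, pmaip1, baxa and bcl2l1. It was also the deepest library, at 27.9 M counts, though CPM is scaled for depth. Its Spearman correlation with wild-type CPT library 1, 0.986, was the lowest within any group. Its TMM factor was 0.962, against 0.835 and 0.877 in wild-type CPT libraries 1 and 2.

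The survival gene bcl2a encodes the zebrafish counterpart of Bcl-2, which in mammals sits on the outer mitochondrial and endoplasmic reticulum membranes. It was the only one of the 5 genes that fell. Wild-type levels were 3.33, 4.15 and 5.65 CPM with DMSO and 0.944, 1.21 and 0.707 CPM with CPT. Mutant levels were 5.39, 3.46 and 3.2 CPM with DMSO and 1.62, 0.965 and 1.17 CPM with CPT. No CPT library reached the lowest DMSO library of its genotype. The log2 fold change was -2.21 ± 0.30 in wild-type embryos (edgeR adjusted p = 2.82e-06) and -1.63 ± 0.30 in mutants (0.000105). Its counts were the lowest of the 5 genes with CPT: those libraries held 15 to 36 counts, and 16 counts carry an exact 95% Poisson interval of 9.15 to 26.0, for counting error only. It had the 566th lowest log2 fold change of all genes tested in wild-type and the 1005th lowest in mutant embryos.

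Markers of several cell types fell in the same comparisons as bcl2a. Over all tested genes 31.8% fell and 29.1% rose in wild-type embryos, and 31.7% fell and 28.5% rose in mutants. Of 10 markers of differentiating neurons, 5 fell and 1 rose in wild-type embryos (median log2 fold change -0.34), and 8 fell and 0 rose in mutants (-0.52). Their summed level was 1312 to 1476 CPM in wild-type DMSO and 1342 to 1499 CPM in wild-type CPT libraries, and 1419 to 1563 against 1152 to 1330 CPM in mutants. The 1 that rose in wild-type embryos, tubb5, was also the most abundant, at 710 ± 84 CPM with DMSO and 907 ± 50 CPM with CPT. Of 8 neural progenitor markers 6 fell and 1 rose in wild-type embryos, and 6 fell and 0 rose in mutants (medians -0.68 and -0.98). Their summed levels were 2628 to 2952 CPM with DMSO against 2665 to 2748 CPM with CPT in wild-type embryos. In mutants they were 2863 to 3037 against 2485 to 2552 CPM. Here pcna was the most abundant and the 1 that rose in wild-type embryos, from 1326 ± 173 to 1680 ± 130 CPM. The wild-type sum therefore does not show the falls counted above. In mutants pcna was at 1354 ± 40 CPM with DMSO and 1579 ± 65 CPM with CPT. Of 9 endothelial markers tested 6 fell and 1 rose in wild-type embryos, and 6 fell and 2 rose in mutants (medians -1.55 and -1.40). The summed level of the 10 in the table was 312 to 381 CPM with CPT against 243 to 249 CPM with DMSO in wild-type, and 312 to 327 against 244 to 264 CPM in mutant embryos. That rise was carried by aplnrb, an apelin receptor gene, which went from 29.1 ± 2.5 to 244 ± 38 CPM in wild-type and from 32.3 ± 3.3 to 218 ± 12 CPM in mutant embryos (SD, n = 3). Without aplnrb, left out after its values were seen, the sum was lower with CPT, at 92.1 to 94.1 against 213 to 221 CPM in wild-type and 96.5 to 103 against 214 to 228 CPM in mutant embryos. Of 8 erythroid markers 4 fell and 0 rose in each genotype. The summed level of the 10 in the table, most of it hbae3, was 1861 to 2461 CPM with DMSO and 2065 to 2265 CPM with CPT in wild-type embryos. In mutants it was 2062 to 2507 CPM with DMSO and 1496 to 2094 CPM with CPT. Of 6 myeloid markers 4 fell and 1 rose in wild-type embryos, and 5 fell and 1 rose in mutants. The summed level of the 9 in the table was 153 to 163 CPM with DMSO and 160 to 179 CPM with CPT in wild-type embryos. In mutants it was 172 to 183 CPM with DMSO and 139 to 152 CPM with CPT. The 1 that rose in wild-type embryos, cebpa, was the most abundant there and went from 54.6 ± 4.8 to 93.3 ± 5.5 CPM. The genes tubb5, pcna and cebpa were named after their values were seen. Of 10 muscle markers 3 fell and 2 rose in wild-type embryos, and 7 fell and 2 rose in mutants. Their summed level was 16176.5 to 17410 CPM with DMSO and 14254 to 18871.5 CPM with CPT in wild-type embryos. In mutants it was 15612.5 to 19075 CPM with DMSO and 9904 to 11737 CPM with CPT. Of 8 epidermal markers 2 fell and 5 rose in wild-type embryos, and 2 fell and 2 rose in mutants. The summed level of the 10 in the table was 9426 to 10054 CPM with DMSO and 11152.5 to 16821 CPM with CPT in wild-type embryos. In mutants it was 8809 to 10092 CPM with DMSO and 9775 to 11956 CPM with CPT. The part of these cell types in the fall of bcl2a was not tested.

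Bcl-xL, the product of bcl2l1, is the other main survival protein of the family. Wild-type levels of bcl2l1 were 48.8, 52.1 and 39.2 CPM with DMSO and 50.6, 51.4 and 56.3 CPM with CPT. Mutant levels were 45.2, 47.0 and 53 CPM with DMSO and 51.4, 54.4 and 52.5 CPM with CPT. The groups overlapped in both genotypes. The log2 fold change was 0.18 in wild-type embryos, with a 95% interval of -0.05 to 0.41 (edgeR adjusted p = 0.176), and 0.12 in mutants, with an interval of -0.11 to 0.36 (0.348). When libraries were scaled by their totals alone the wild-type value was -0.05, while the median of all genes shifted to -0.23.

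Calls were common with CPT. In wild-type embryos 29.1% of tested genes rose and 31.8% fell, and in mutants 28.5% rose and 31.7% fell. Against this, 3 of the 5 genes rose and 1 fell in each genotype, with a median log2 fold change of 1.82 in wild-type and 1.92 in mutant embryos where the median of all genes was -0.0025 and -0.0064. In the size of the change bbc3, pmaip1 and baxa lay at or above the 98.1st percentile of log2 fold changes in both genotypes, and bcl2a lay at the 4.77th and the 8.47th percentile. The 5 genes were chosen with earlier results of these data known. Their medians and percentiles are therefore a description and not a test of the set.

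**Figure D2:**
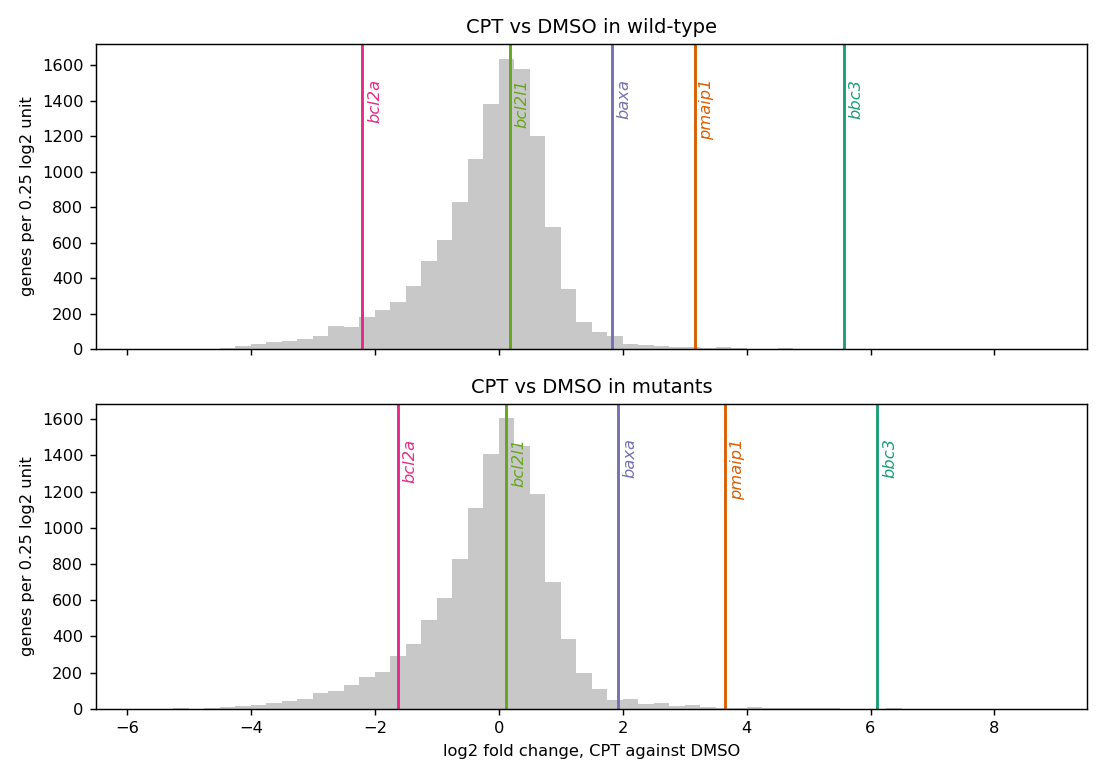
Number of tested genes (y axis, per 0.25 log2 unit) by their log2 fold change with CPT (x axis) in wild-type embryos (top) and miR-34a mutants (bottom); vertical lines mark the 5 genes. The lines of bbc3 (5.57 and 6.11) and pmaip1 (3.16 and 3.65) stand in the right tail, bcl2a (-2.21 and -1.63) in the broader left flank and bcl2l1 (0.18 and 0.12) near the peak.

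Ratios of counts within a library do not depend on how libraries are scaled, and the ratio of Bax to Bcl-2 is a customary index of the balance between death and survival. There were 14.2, 11.6 and 7.81 reads of baxa per read of bcl2a in wild-type DMSO libraries and 169, 118 and 268 in wild-type CPT libraries. In mutants the ratio was 7.59, 13 and 16.6 with DMSO and 99.3, 190 and 156 with CPT. The mean ratio thus rose 16.5-fold in wild-type and 12-fold in mutant embryos. With CPT it rests on only 15 to 36 counts of bcl2a per library, and it is a ratio of RNA reads, not of proteins. Puma against Bcl-xL, read as bbc3 over bcl2l1, went from 0.0856 ± 0.023 to 3.51 ± 0.23 (SD, n = 3) in wild-type and from 0.0594 ± 0.0081 to 3.73 ± 0.27 in mutant embryos. For pmaip1 over bcl2l1 the means were 0.130 ± 0.0063 and 1.01 ± 0.35 in wild-type, and 0.111 ± 0.031 and 1.31 ± 0.081 in mutant embryos. For all 3 ratios each CPT library exceeded each DMSO library, as the choice of genes that moved makes likely, and no test is given.

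**Figure D3:**
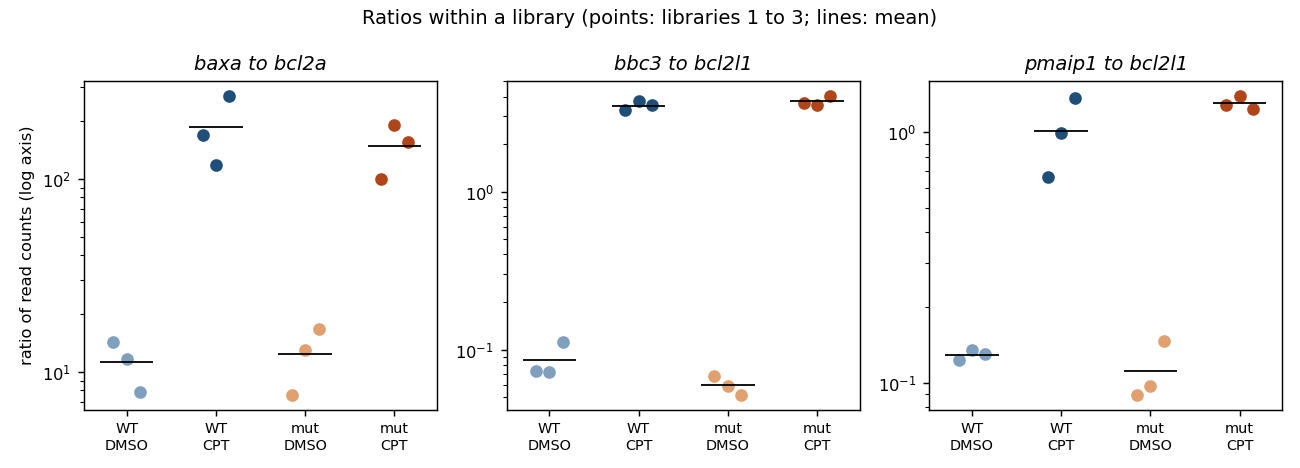
Ratio of read counts of 2 genes within each library (log axes; points are libraries 1 to 3 from left to right, lines are means of 3). All CPT libraries lie above all DMSO libraries, from 99.3 upward against 16.6 at most for baxa to bcl2a.

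The comparison of genotypes asks whether the level of these genes differed between miR-34a-/- and wild-type embryos. In DMSO and in CPT 0 of the 5 genes were called by edgeR, DESeq2 or limma-voom. At an unadjusted p under 0.05 edgeR counted 1 of the 5 in DMSO, which was bbc3, and 0 in CPT, where 11.8% and 19% of all tested genes were below that value. In DMSO DESeq2 also counted bbc3, but limma-voom counted 0 of the 5. In CPT both counted 0. The level of bcl2a in mutants was -0.14 relative to wild-type embryos on the log2 scale in DMSO (95% interval -0.68 to 0.40, edgeR adjusted p = 0.898) and 0.43 in CPT (-0.29 to 1.16, adjusted p = 0.538). Both intervals include 0. For bcl2l1 the intervals were narrower, -0.18 to 0.28 in DMSO and -0.23 to 0.23 in CPT. The order of genes in the reference places bcl2l1 on the chromosome of mir34a with 115 annotated genes between them.

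In control embryos bbc3 was lower in mutants, at 2.85 ± 0.18 against 3.90 ± 0.42 CPM (SD, n = 3), and the libraries did not overlap. The log2 difference was -0.46 ± 0.15 (95% interval -0.77 to -0.15), with an unadjusted p of 0.00587 in edgeR's quasi-likelihood test, but the adjusted p was 0.194 and the difference was not called. With limma-voom even the unadjusted p was not under 0.05. Libraries of these 2 groups failed to overlap in 17.1% of all tested genes. With CPT the levels were 197 ± 13 and 185 ± 17 CPM and the libraries overlapped. The 4 groups ordered by bbc3 were therefore mutant CPT, wild-type CPT, wild-type DMSO and mutant DMSO, and neither the first pair nor the last passed the test.

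For pmaip1 in CPT the mutants were at 69.1 ± 6.0 and wild-type embryos at 53.9 ± 22 CPM (SD, n = 3), a log2 difference of 0.35 ± 0.26 (edgeR adjusted p = 0.512). Wild-type library 3, at 77.2 CPM, was above all mutant libraries, and libraries 1 and 2 were below them all. Without that library the difference was 0.70 and was called (adjusted p = 0.0395). The same omission raised the number of genes called in that comparison from 390 to 1045. For baxa the difference was 0.0979 (95% interval -0.14 to 0.33) in CPT and -0.0026 (-0.25 to 0.24) in DMSO.

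The interaction asks whether the response to CPT itself differed between genotypes, and here 0 of the 5 genes were called by edgeR, DESeq2 or limma-voom, with 0.16% of all tested genes called by edgeR. At an unadjusted p under 0.05 each of the 3 tools counted 1 gene, bbc3, where edgeR counted 15.1% of all tested genes. Its log2 rise was larger in mutants by 0.54 ± 0.18 (95% interval 0.17 to 0.91, edgeR unadjusted p = 0.00600, adjusted p = 0.149). This is not separate from the lower mutant level in DMSO: mutants differed from wild-type embryos by -0.46 in DMSO and 0.088 in CPT. The interaction was 0.49 (-0.43 to 1.41) for pmaip1, 0.10 (-0.24 to 0.44) for baxa, 0.57 (-0.33 to 1.48) for bcl2a and -0.05 (-0.38 to 0.28) for bcl2l1. The intervals were widest for pmaip1 and bcl2a.

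**Figure D4:**
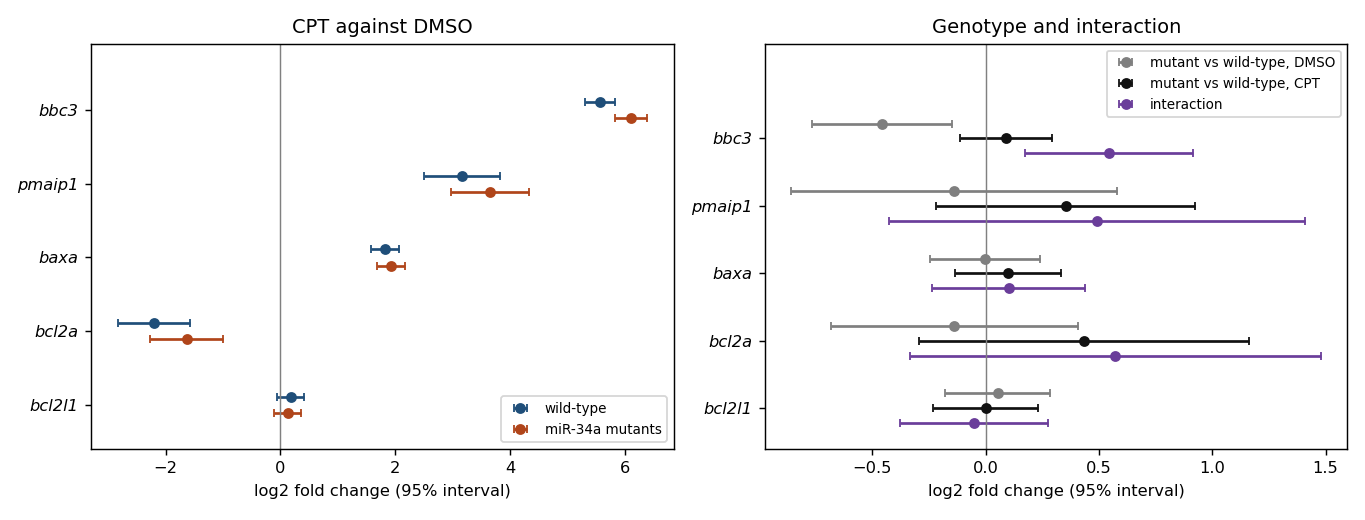
Log2 fold changes of the 5 genes with 95% intervals (x axes; points are estimates from 3 libraries per group): CPT against DMSO in each genotype (left), and mutant against wild-type embryos within each treatment with the interaction (right). Intervals at right include 0 except for bbc3 in DMSO (-0.77 to -0.15) and in the interaction (0.17 to 0.91), both with adjusted p above 0.05. Both use the same DMSO libraries.

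The other Bcl-2 family genes had log2 fold changes of -0.91 to 1.5 with CPT. Of 17 further Bcl-2 family genes in the table, 15 were tested. In wild-type embryos 6 rose and 2 fell (median log2 fold change 0.24), and in mutants 5 rose and 0 fell (median 0.42). The shares over all tested genes were 29.1% for rises and 31.8% for falls in wild-type embryos. In mutants they were 28.5% and 31.7%. The counts of rises fell to 3 in each genotype when library totals replaced TMM factors. In wild-type embryos they also fell to 3 without DMSO library 1, and in mutants to 3 without DMSO library 1, to 2 without DMSO library 2 and to 1 without CPT library 2.

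Among the other BH3-only genes, 3 of 8 rose and 2 fell in wild-type embryos, and 2 rose in mutants. Over all tested genes 29.1% rose and 31.8% fell in wild-type embryos, and 28.5% rose in mutants. The Bad gene badb, whose mammalian counterpart responds to growth factor signals, rose by 1.35 ± 0.50 in wild-type and 1.5 ± 0.52 in mutant embryos (edgeR adjusted p = 0.0245 and 0.0172). It was scarce, with 0.280 ± 0.14 and 0.706 ± 0.33 CPM in wild-type DMSO and CPT libraries, from 19 and 49 counts summed over 3 libraries each. In wild-type embryos its call was lost with library totals (adjusted p = 0.0641) and without DMSO library 1 (0.0928), DMSO library 3 (0.0901) or CPT library 3 (0.194), and in mutants without DMSO library 2 (0.0557) or CPT library 2 (0.106). The Bim gene bcl2l11 rose from 1.23 ± 0.39 to 2.14 ± 0.37 CPM in wild-type embryos (0.78, adjusted p = 0.0287) and was at 0.32 in mutants (0.378). Without wild-type DMSO library 1 (0.144) or CPT library 1 (0.0742), and with library totals (0.126), the wild-type rise was not called. The mitophagy receptor gene bnip3 rose by 0.90 in wild-type embryos (0.00181) and was at 0.55 in mutants (0.0532), where leaving out mutant CPT library 1, wild-type DMSO library 2 or any wild-type CPT library brought a call (0.0392 to 0.0484). In wild-type embryos bik fell from 3.32 ± 0.40 to 1.74 ± 0.49 CPM (-0.91, adjusted p = 0.0026) and bnip3lb by 0.42 (0.0156), the latter not called without DMSO library 2 or 3 or without CPT library 2 or 3 (0.0577 to 0.106). In mutants bik was at -0.15 (0.618) and bnip3lb at -0.07 (0.700). The gene of Bid, bida, which links death receptors to mitochondria, rose by 0.42 in mutants (0.0456) and was at 0.29 in wild-type embryos (0.153). The mutant call was lost with limma-voom (0.0704), with library totals (0.105), without any of the 3 wild-type DMSO libraries (0.0502 to 0.0557) and without mutant DMSO library 1 (0.0862), DMSO library 2 (0.150) or CPT library 2 (0.22, 0.323), and in wild-type embryos a call appeared without CPT library 2 (0.0463). The interaction was called for none of these by edgeR; bik had an unadjusted p of 0.0413 there (adjusted p = 0.312).

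Of the other pore formers, bokb rose in wild-type embryos (0.90, edgeR adjusted p = 0.00841; 0.46 in mutants, 0.196), and the second Bax gene baxb rose in mutants (0.61, 0.012; 0.06 in wild-type embryos, 0.802), not called without mutant DMSO library 2 (0.0506) or CPT library 2 (0.0816). The paralogs baxa and baxb thus had unequal responses in wild-type embryos, 1.82 against 0.06. Baxb was at 4.62 ± 0.35 and 4.85 ± 0.88 CPM (SD, n = 3) in wild-type DMSO and CPT libraries. The third gene, boka, passed in neither genotype (-0.17 and 0.23). The interaction was called for 0 of the 3 by edgeR, DESeq2 or limma-voom, and 0 had an unadjusted p under 0.05 there.

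Of the 4 other genes tested that were listed here as survival genes, bcl2l10 and mcl1a rose in both genotypes and 0 fell. Over all tested genes 29.1% rose in wild-type and 28.5% in mutant embryos. The gene bcl2l10, known in zebrafish as nrz, went from 63.4 ± 5.2 to 95.1 ± 17 CPM in wild-type embryos (0.59 ± 0.12, edgeR adjusted p = 0.000313) and from 73.1 ± 7.2 to 108 ± 11 CPM in mutants (0.56 ± 0.12, 0.000539). The Mcl-1 gene mcl1a rose by 0.24 in each (adjusted p = 0.0415 and 0.0432). With library totals mcl1a was at 0.0075 in wild-type embryos (adjusted p = 0.956) and at 0.18 in mutants (0.163). Its wild-type call was also lost when those groups were fitted alone (0.0639) and without wild-type DMSO library 1 (0.151), DMSO library 2 (0.123), CPT library 3 (0.0523) or mutant CPT library 2 (0.05004). In mutants the rise was no longer called when wild-type DMSO library 2 (0.0513) or any mutant library except DMSO library 2 was left out (0.0519 to 0.122). Neither mcl1b (-0.02 and 0.42) nor bcl2l13 (0.43 and 0.67) was called in the main edgeR fit. Other edgeR settings called bcl2l13 in mutants, such as no low-count filter (adjusted p = 0.0427), thinned libraries (0.0447) and a replicate block (0.0338). They called mcl1b in mutants when those groups were fitted alone (0.00589). Without mutant CPT library 1 mcl1b was called (0.0459), and without mutant DMSO library 3 bcl2l13 was called (0.00362). In mutants DESeq2 called both (adjusted p = 0.0448 and 0.0457) and limma-voom called bcl2l13 (0.0320). The interaction was called for 0 of these 4 listed genes by edgeR, DESeq2 or limma-voom. The genes bmf2 and bcl2l16 were below the filter, with at most 4 and 15 counts summed over a group.

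**Figure D5:**
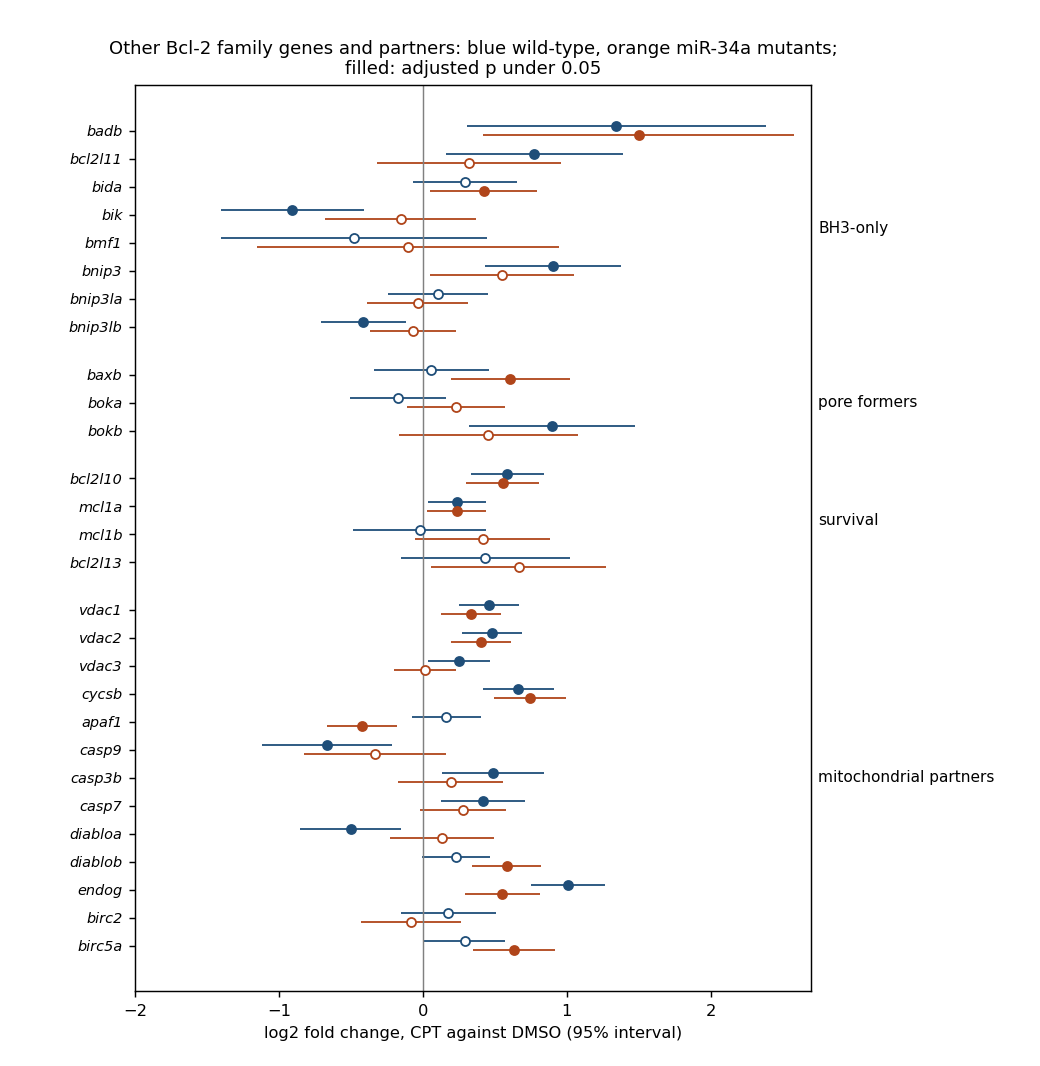
Log2 fold changes with CPT and 95% intervals (x axis) for the 15 other Bcl-2 family genes and the 13 mitochondrial partners tested, in wild-type embryos (blue) and miR-34a mutants (orange); filled points have an adjusted p under 0.05. All estimates lie between -0.91 and 1.5. Those of the 5 genes described first span -2.21 to 6.11, but genes and lists were chosen with earlier results of these data known.

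Partners of the family at and behind the mitochondrial membrane changed moderately. Of 13 tested, 7 rose and 2 fell in wild-type embryos (median 0.29), and 6 rose and 1 fell in mutants (0.28). Over all tested genes 29.1% rose and 31.8% fell in wild-type embryos, and 28.5% rose and 31.7% fell in mutants. The 2 wild-type falls (casp9 and diabloa, named after their values were seen) became 0 without DMSO library 3 and 1 without CPT library 1. Cytochrome c, which Bax pores release, is encoded by cycsb. It rose from 258 ± 17 to 409 ± 9.8 CPM in wild-type embryos (0.66, edgeR adjusted p = 7.02e-05) and from 234 ± 39 to 393 ± 47 CPM in mutants (0.74, 2.01e-05). The endonuclease gene endog rose by 1.01 and 0.55 (6.99e-07 and 0.000719). The channel genes vdac1 (0.46) and vdac2 (0.48) rose in wild-type embryos (adjusted p = 0.000501 and 0.000342) and by 0.34 and 0.40 in mutants (0.00651 and 0.00171). The gene diablob, which encodes an antagonist of caspase inhibitors, rose by 0.58 in mutants (0.000212) and was at 0.23 in wild-type embryos (0.0828). Its wild-type rise was called without wild-type DMSO library 3 (0.0360) or CPT library 2 (0.0283). For birc5a (survivin, also a mitotic protein) the rise was 0.64 in mutants (0.000469), and the wild-type value was 0.29 (0.0708). That wild-type value was called with no low-count filter (0.0362). It was also called without wild-type DMSO library 3, wild-type CPT library 1 or 2, or mutant CPT library 3 (0.0132 to 0.0459). With library totals the wild-type count of rises was 4.

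The apoptosome scaffold gene apaf1 was the only partner called between genotypes in the main edgeR fit, and it was singled out after its values were seen. It fell with CPT in mutants, from 35.6 ± 3.3 to 26.5 ± 2.6 CPM (SD, n = 3; -0.43, edgeR adjusted p = 0.00381). In wild-type embryos it was at 36.1 ± 3.1 and 40.4 ± 3.4 CPM (0.16, adjusted p = 0.226). With CPT the mutants were lower by -0.61 on the log2 scale (adjusted p = 0.0089), and the libraries did not overlap, as in 22.8% of all tested genes. Without mutant CPT library 2 the adjusted p was 0.0621. The interaction was -0.59 (unadjusted p = 0.00177, adjusted p = 0.103) and was not called by edgeR. DESeq2 called 3 partners lower in mutants with CPT (vdac3, apaf1 and birc2) and 1 in the interaction, which was apaf1 (adjusted p = 0.0442). Over all tested genes DESeq2 also called more than edgeR in both comparisons. Without wild-type CPT library 3 edgeR also called the interaction of apaf1 (-0.64, adjusted p = 0.0344), and in CPT it then called vdac3 (-0.46, 0.00645) and birc5a (0.50, 0.00793) between genotypes. That omission raised the calls over all genes from 390 to 1045 in CPT and from 19 to 504 in the interaction. Without wild-type DMSO library 1 edgeR called diabloa lower in mutants in DMSO (-0.72, adjusted p = 0.0344). The same omission called the family genes bnip3lb (-0.55, 0.0371) and mcl1b (-0.87, 0.00207) lower there. It raised the calls over all genes in DMSO from 71 to 196.

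A further list held 12 genes, taken as regulators of the Bcl-2 family or of its regulators. Of these 12, 5 rose and 3 fell in wild-type embryos (median 0.32), and 6 rose and 2 fell in mutants (0.40). The 8 called in each genotype stand beside 60.8% and 60.2% of all tested genes. The forkhead gene foxo3b, whose mammalian counterpart activates the genes of Bim and Puma, rose by 2.40 and 2.38 on the log2 scale (wild-type, then mutant embryos). For mdm2, which encodes a ubiquitin ligase, the log2 rises were 2.43 and 2.40. The epidermal transcription factor gene tp63, also counted among the epidermal markers above, fell by 2.39 and 2.40. The gene ppp1r13ba, which encodes a protein of the ASPP family, fell by 1.51 and 1.90. None of the 12 was called by edgeR in the genotype comparisons or in the interaction, but mdm4, a relative of mdm2, was called higher in mutants with CPT under library totals (0.55, adjusted p = 0.0242) and without wild-type CPT library 3 (0.49, 0.0183). Over all genes the same settings raised the calls in CPT from 390 to 1195 and to 1045. At an unadjusted p under 0.05 edgeR counted 0 of them in DMSO, 1 in CPT (mdm4) and 2 in the interaction (1 of them mdm4), and DESeq2 and limma-voom also called none.

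The genes whose log2 CPM followed each gene most closely over the 12 libraries were named by Pearson's r, as a description. For bbc3 they were the growth arrest gene gadd45aa (r = 0.999), the small GTPase gene rhoub (0.998) and the cyclin T gene ccnt2b (0.998). For pmaip1 they were zgc:171435 (0.993), the growth factor gene hbegfa (0.992) and tmem206 (0.992). For baxa they were the tRNA methyltransferase gene trmt5 (0.997), rpz5 (0.996) and LOC101885512 (0.996), and for bcl2a they were plp1a (0.984), fat3a (0.983) and slc38a4 (0.982). For bcl2l1 the closest were zgc:66474 (0.915), phax (0.903) and f3a (0.898). All libraries share the split by treatment, so a high r is common: 10.4% to 14.1% of other genes reached 0.9 with each of the first 4 genes, against 2 of 11861 with bcl2l1.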

How the data were processed

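The deposited table holds raw read counts per gene symbol for 12 poly-A RNA libraries sequenced on an Ion Proton, matched to samples by genotype, treatment and replicate number. Per the submitters' processing notes the authors worked with build danRer11 and HTSeq 0.9.1. The notes also name STAR 2.7, Bowtie2, Trim Galore 0.4.4 and Picard 2.5.0, in no order. How multi-mapped reads were treated, the strand setting and the annotation were not given in the sources used here, so paralogs (baxa and baxb, mcl1a and mcl1b) may share reads. In the RefSeq gene table of another build (GRCz12tu), used for names and gene order, none of the 5 genes overlapped another.

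Genes were filtered by group with filterByExpr (11866 kept), scaled with TMM and tested with edgeR 4.0.16 in R 4.3.3 (robust glmQLFit and glmQLFTest) in 1 fit of 4 group means over 12 libraries, with Benjamini-Hochberg adjustment over all genes and calls under 0.05. Each standard error was obtained by dividing the log2 fold change by the root of its F statistic. DESeq2 1.42.0 and limma 3.58.1 (voom) were alternatives, with other scalings, filters, thinning to 13.5 M counts, contrasts fitted alone, a replicate block and each library left out. Only the edgeR steps for CPT against DMSO in wild-type embryos were tested on simulated counts. There far fewer genes changed than were called here, as many up as down. Likeness used log2 CPM with a prior count of 2.

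The genes, lists and tests were chosen with earlier results of these data known. The text names all 5 genes, every called member of the other Bcl-2 family lists and, of the other 2 lists, the members with the smallest p (up to 4 per genotype), except 1 that is not reported here. Of the 134 entries of all lists, 1 matched by a synonym. Family entries absent from the table (such as bada, bcl2b and bcl2l12) were not analysed here. The plan to give levels per coding length was not carried out, because no lengths of coding sequence were at hand.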

Additional observations from a re-analysis of the deposited data

How the results depend on the processing

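Of the 25 log2 fold changes of the 5 genes (5 comparisons each), all kept their side of the threshold under the 21 alternatives (20 for the interaction), except pmaip1 between genotypes in CPT, which ranged from 0.11 to 0.70 with 1 library left out and was called without wild-type CPT library 3. Over all alternatives the wild-type response was 5.34 to 5.68 for bbc3, 2.85 to 3.44 for pmaip1, 1.6 to 1.95 for baxa and -2.43 to -1.96 for bcl2a, and the mutant response of bcl2a was -1.90 to -1.38. The counts of genes called between genotypes were far less stable. In DMSO 71 became 183 with DESeq2 and 24 to 196 with 1 library left out. In CPT 390 became 1195 with library totals, 677 with DESeq2, 193 when fitted alone and 65 to 1045 with 1 library left out. The interaction's 19 became 7 with library totals, 35 without the low-count filter, 253 with DESeq2 and 0 to 504 with 1 library left out, the highest without wild-type CPT library 3. With library totals the share of rises among the calls was 29.7% instead of 47.8% in wild-type embryos with CPT, 91.0% instead of 34.4% between genotypes in CPT and 85.7% instead of 15.8% in the interaction. The mean ratio of pmaip1 to bcl2l1 in wild-type DMSO libraries was 0.115 after thinning against 0.130. The cause of these shifts was not tested. Same-numbered libraries of compared groups had deviations correlated at -0.16 to 0.15, and 6 of 12 libraries were closest to their own number. These values do not settle whether the numbers pair the libraries, and the main fit treated them as unpaired. With a replicate block the calls were 7256 and 7187 for CPT in wild-type and mutant embryos, 84 and 475 between genotypes and 25 in the interaction. No call of the 5 genes changed under the block (bbc3 6.11 in mutants; bcl2a -2.21 in wild-type embryos). In mutants bida (adjusted p = 0.0529) was lost, and bnip3 (0.0460) and bcl2l13 (0.0338) were gained. In wild-type embryos the rise of vdac3 was lost (0.0522). The depth was lowest for bcl2a, at 15 to 36 counts in CPT libraries.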

Other observations

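Within groups, the 5 genes deviated from their group means partly together and partly in opposite directions. Over the 12 libraries the deviations of log2 CPM had a Pearson r of 0.73 for pmaip1 with baxa and 0.73 for pmaip1 with bcl2l1, and -0.85 for baxa with bcl2a. The values were 0.67 for baxa with bcl2l1, -0.56 for pmaip1 with bcl2a and -0.72 for the 2 survival genes, bcl2a with bcl2l1. For bbc3 the values were smaller in size, 0.10 with pmaip1, -0.10 with baxa, 0.38 with bcl2a and -0.44 with bcl2l1. Pairs of other genes were not read for comparison. The points share library, depth and scaling, so these values are a description of the libraries.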
